A study of Mus musculus with 4 samples.

Results

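The genes of the MHC-I presentation pathway were examined for binding of Runx3, a transcription factor of the Runt family, in splenic CD4+ DC. The 10 genes were H2-K1, H2-D1, B2m, Tap1, Tap2, Tapbp, Psmb8, Psmb9, Erap1 and Nlrc5. A Runx3 peak was assigned to a gene when its centre lay in the gene body or within 20 kb of it, on mm9 with the gene models of GENCODE M1. By this rule 21 of the 15121 peaks of the series belonged to the 10 genes. The chromatin came from conventional DC of C57BL/6 mice, sorted from pooled spleens of about 15 animals as CD11chiMHCII+CD4+ cells. There were 2 Runx3 immunoprecipitates, made with an in-house polyclonal antibody, and 2 inputs of whole cell extract, from 2 biological replicates; the labels name no treatment, mutant allele or age, and that of input replicate 2 gives the strain as C57BL/7. Both immunoprecipitates had been called together against both inputs, so each peak has 1 score for the whole series, no value per sample and no replicate error. No group of samples could therefore be compared, the counts and scores are descriptions without a test, and the identity of the cells could not be checked on marker expression.

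MHC-I molecules present peptides from proteins made inside the cell to CD8+ T cells. The peptides are cut by the proteasome, carried into the endoplasmic reticulum by the TAP transporter, trimmed there, and loaded with the help of tapasin onto a heavy chain paired with beta-2-microglobulin. The genes share promoter elements read by NF-kB, interferon regulatory factors and the enhanceosome that the regulator NLRC5 joins, and cross-presentation, the loading of peptides from engulfed material onto MHC-I, is a known property of DC, in the spleen chiefly of the CD8+ subset. Runx proteins bind DNA as heterodimers with Cbfb, at the hexamer TGTGGT and its variant TGCGGT.

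Runx3 peaks lay at 8 of the 10 genes. H2-D1 had the highest-scoring peak (72.7), followed by H2-K1 (49.4), Tapbp (38.1) and B2m (34.2). None was called at Erap1, which trims peptides, or at Nlrc5. All 8 genes with a peak had 1 within 1 kb of a transcription start site (TSS), and for 6 of the 8 no such peak held a RUNX hexamer. At 4 genes, B2m, Tap1, Psmb8 and Psmb9, that peak scored below the median of the list. The highest-scoring peaks of H2-D1, H2-K1, Tapbp and B2m lay away from the gene's own promoter. That of H2-K1 was 31 bp from the TSS of H2-K2 and that of Tapbp 11 bp from the TSS of Daxx. For B2m the nearest TSS was of Trim69, 4610 bp away. The score is the value written by the peak caller, in a unit that the sources used here do not state. Over the whole list it ran from 1.33 to 309.3 with a median of 12.1 and an upper quartile of 23.2.

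The sequences below are from mm9 and read 5′ to 3′. The first set is shown because its members hold a RUNX hexamer close to the peak centre; capitals mark the hexamer, which reads ACCACA where it lies on the opposite strand. Only 30 bases are given where the element fell in an exon that at least 1 transcript leaves untranslated.
H2-D1 upstream peak, chr17:35396053-35396292, plus strand: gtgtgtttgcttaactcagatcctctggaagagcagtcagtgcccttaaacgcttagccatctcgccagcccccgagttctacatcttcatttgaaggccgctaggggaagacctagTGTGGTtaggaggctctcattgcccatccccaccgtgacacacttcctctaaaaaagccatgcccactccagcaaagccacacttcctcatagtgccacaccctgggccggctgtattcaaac
Tapbp intron 3 peak, chr17:34057535-34057774, plus strand: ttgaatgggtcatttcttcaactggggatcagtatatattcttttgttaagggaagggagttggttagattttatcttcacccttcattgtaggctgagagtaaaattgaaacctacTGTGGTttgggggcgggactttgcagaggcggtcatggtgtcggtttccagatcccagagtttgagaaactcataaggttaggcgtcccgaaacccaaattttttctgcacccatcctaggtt
H2-K1 downstream peak, chr17:34118089-34118208, minus strand: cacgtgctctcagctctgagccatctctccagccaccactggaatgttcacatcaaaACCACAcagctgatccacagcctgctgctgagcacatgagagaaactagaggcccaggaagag
Tap1 last exon peak, chr17:34333589-34333618, plus strand: cagagcaggcccACCACAtcctctttctca
Psmb8 peak, chr17:34335344-34335424, plus strand: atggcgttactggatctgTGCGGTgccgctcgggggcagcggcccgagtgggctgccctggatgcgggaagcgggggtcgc

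The second set holds the NF-kB element GGGGANTCC, where N is any base. It is shown because the element stood in the same surroundings at the 2 classical heavy chain genes and at the pseudogene H2-K2; capitals mark GGGGATTCCCC, in which matches on both strands overlap.
H2-K1 promoter, chr17:34137339-34137458, minus strand: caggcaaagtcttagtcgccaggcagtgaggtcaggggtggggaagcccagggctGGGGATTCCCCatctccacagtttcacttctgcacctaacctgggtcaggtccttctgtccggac
H2-D1 promoter, chr17:35399859-35399887, plus strand: cccagggctGGGGATTCCCCatctcctca
H2-K2 promoter, chr17:34115863-34115982, minus strand: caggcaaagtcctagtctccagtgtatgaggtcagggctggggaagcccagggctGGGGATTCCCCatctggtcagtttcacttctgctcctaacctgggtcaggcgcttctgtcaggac

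The third set holds the interferon-stimulated response element (ISRE), searched as GAAANNGAAA. The promoter peaks of 4 other genes carried an exact match. Near matches were not searched for, so the sets do not show that a promoter lacks the other element. Capitals mark the element. At Psmb8 it lies on the opposite strand, at Tapbp 2 matches overlap, and at Tap2 the match nearest the peak centre is given.
B2m promoter, chr2:121973244-121973348, plus strand: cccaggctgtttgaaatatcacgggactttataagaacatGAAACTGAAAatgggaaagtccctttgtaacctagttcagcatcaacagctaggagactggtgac
Tapbp promoter, chr17:34056573-34056602, plus strand: ttagaagGAAAATGAAAGTGAAAggggaag
Psmb8 first exon, chr17:34335280-34335309, plus strand: gtactgtggcTTTCGCTTTCacttccttgt
Tap2 promoter, chr17:34341436-34341465, plus strand: gcagtgaagtGAAAGCGAAAgccgcgggac

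**Figure D1:**
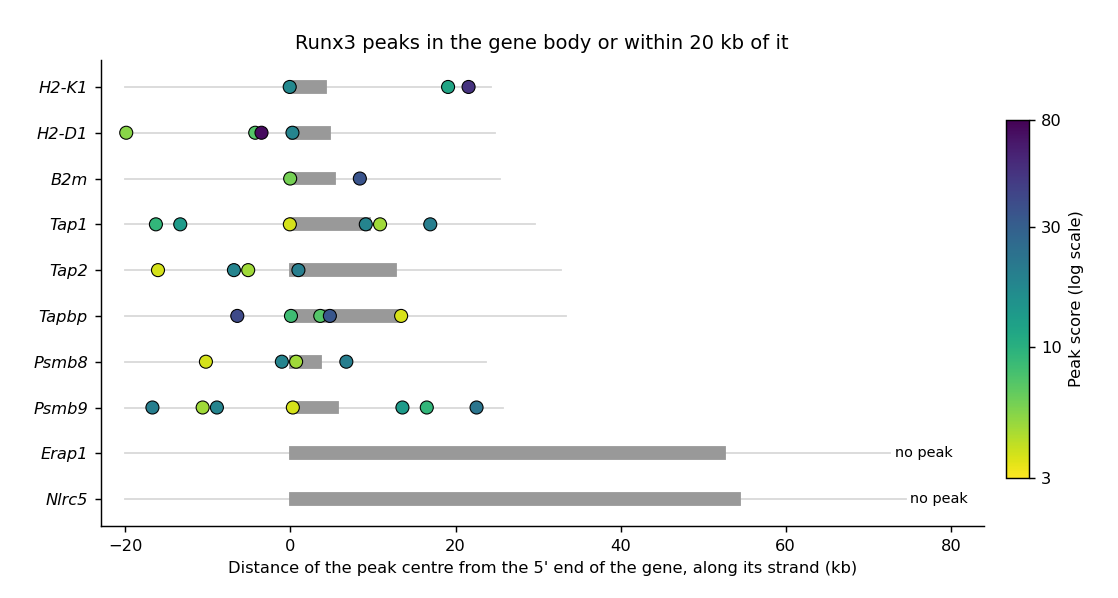
Runx3 peaks at the 10 genes. The x axis gives the distance in kb of each peak centre from the 5′ end of the gene along its strand, grey bars are gene bodies, thin lines extend 20 kb on either side, and the colour of each point is the peak score on a log scale. A peak sits at the 5′ end of H2-K1, H2-D1, B2m, Tap1, Tapbp and Psmb9, the darkest point lies upstream of H2-D1, and the long Erap1 and Nlrc5 genes are empty; peaks between Tap1, Tap2, Psmb8 and Psmb9 appear under several genes.

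H2-K1 and H2-D1 encode the classical MHC-I heavy chains of these mice. H2-D1 (chr17:35399675-35404444, plus strand) had 4 peaks. The strongest, chr17:35395901-35396431, had a score of 72.7 and ranked 434 in the list, and it lay in intergenic DNA 3509 bp upstream of the nearest H2-D1 TSS. Its only TGTGGT was 7 bp from the centre. A weaker neighbour at chr17:35395243-35395568, 4270 bp upstream, scored 7.20 and also held TGTGGT. The peak over the first exon, chr17:35399602-35400230, scored 18.1, with its centre 123 bp upstream of a TSS, and held neither RUNX hexamer. The fourth peak scored 5.36 and lay just inside the distance limit, 19897 bp from the gene. That peak was 166 bp from the TSS of Ddx39b, which encodes an RNA helicase, so it lay at the promoter of another gene.

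H2-K1 (chr17:34132962-34137278, minus strand) had 3 peaks. The promoter peak, chr17:34137094-34137644, scored 17.3 with its centre 91 bp upstream of the gene, and it held no RUNX hexamer. The strongest, chr17:34115265-34116140, scored 49.4 and lay 17260 bp beyond the 3′ end of H2-K1, 31 bp from the TSS of H2-K2, annotated as a pseudogene. The third, chr17:34118018-34118352, scored 11.7 and had TGTGGT 36 bp from its centre. This peak lay 14777 bp beyond the 3′ end of H2-K1, 496 bp from the TSS of Gm4152. The nearest peaks outside the limit were at 24632 bp with a score of 3.69 and at 27042 bp with a score of 62.0 for H2-K1, and at 21337 bp with a score of 9.16 for H2-D1.

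The promoter peaks of the heavy chain genes were alike in sequence. H2-K1 and H2-D1 had 84.7% identical bases over 577 aligned columns, and H2-K1 and H2-K2 had 82.5% over 526. H2-Q7, a nonclassical heavy chain gene with a promoter peak of score 31.0, had 80.2% identity with H2-K1 and 83.1% with H2-D1. The lowest identities were those with H2-K2, 79.6% for H2-D1 and 75.7% for H2-Q7. The upstream H2-D1 peak aligned with none of these over more than 22 columns. Such likeness bears on which reads could be placed, because only uniquely aligned reads had been kept. In the mm9 genome, every stretch of 50 bases, the read length, occurred once in 18 of the 21 peaks (85.7%, against 91.8% of all peaks). The exceptions were the H2-K2 peak at 97.3% of its stretches, the H2-K1 downstream peak at 90.2% and the weaker upstream H2-D1 peak at 59.2%. The H2-Q7 peak stood at 66.3%, so that reads could be placed over only a part of it.

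B2m (chr2:121973422-121978819, plus strand) encodes beta-2-microglobulin, the chain that every MHC-I heavy chain pairs with, and it is the only gene with a peak that lies outside the MHC. Its promoter peak, chr2:121973244-121973528, scored 5.96, at percentile 17.7 of the list, with its centre 36 bp upstream of the TSS. The other peak, chr2:121981586-121982067, scored 34.2 at percentile 85.9 and lay 3007 bp past the end of B2m, in intron 2 of Patl2. The TSS nearest to that peak was of Trim69, 4610 bp away, while the B2m TSS was 8404 bp away. Neither peak held TGTGGT or TGCGGT.

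Tap1 and Tap2 encode the subunits of the peptide transporter, and Psmb8 and Psmb9 encode catalytic subunits of the immunoproteasome. The 4 genes lie side by side, so 7 peaks were shared out as 6 for Tap1, 4 for Tap2, 4 for Psmb8 and 7 for Psmb9. Tap1 (chr17:34324498-34334170, plus strand) and Psmb9 (chr17:34318932-34324709, minus strand) are read in opposite directions from 1 promoter. The peak there, chr17:34324210-34324634, scored 3.69, at percentile 4.0 of the list, 76 bp upstream of Tap1 and 124 bp upstream of a Psmb9 TSS. It held no RUNX hexamer and no exact match to the NF-kB or ISRE string that was searched.

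Tap2 (chr17:34340472-34353266, plus strand) had the strongest promoter peak of the cluster, chr17:34341236-34341630. It scored 19.8, 79 bp upstream of a Tap2 TSS, and held 2 separate ISREs and no RUNX hexamer. In Psmb8 (chr17:34334666-34338399, plus strand) the peak chr17:34335195-34335504 scored 4.79 and lay in coding exon 1, 205 bp upstream of a Psmb8 TSS without covering one. It held TGCGGT 16 bp from the centre. A stronger peak of 18.1, chr17:34333394-34333851, stood 1044 bp upstream of Psmb8, in exon 11 of Tap1, with TGTGGT 18 bp from its centre. The other 3 peaks of the cluster were intergenic, on the 3′ side of Psmb9, with scores of 22.3, 13.4 and 9.16. The first of them counted for Psmb9 but lay 22332 bp from Tap1, just outside its limit.

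Tapbp (chr17:34052844-34066235, plus strand) encodes tapasin, which bridges the transporter and the empty heavy chain. It had 5 peaks. In intron 3, chr17:34057179-34058056 scored 33.2 and held 2 TGTGGT and 1 TGCGGT, the nearest 38 bp from the centre, 144 bp from an internal Tapbp TSS. A peak of 7.20, chr17:34056294-34056613, was centred 4 bp from another Tapbp TSS. The remaining peaks were at promoters of its neighbours. The highest-scoring one, chr17:34045951-34046851, with 38.1, lay 11 bp from the TSS of Daxx, which encodes a histone H3.3 chaperone, and 6443 bp upstream of Tapbp. A peak of 8.31 was 56 bp from the Zbtb22 TSS and also close to the first Tapbp TSS (61 bp), and 1 of 3.68 was 238 bp from the Rgl2 TSS.

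Erap1 (chr13:74777320-74829983, plus strand) encodes the aminopeptidase that trims peptides in the endoplasmic reticulum, and no peak was assigned to it. The nearest, with a score of 10.5, lay 42734 bp from the gene body. Nlrc5 (chr8:96996663-97051172, plus strand) encodes the transactivator of MHC-I genes and is typed as lincRNA in GENCODE M1. Its nearest peak scored 16.5 and lay 74342 bp away. The kilobase around the 5′ end of either gene consisted entirely of 50-base stretches found once in the genome, and over the gene bodies the share was 82.4% for Erap1 and 98.2% for Nlrc5. The absence of a peak means that none was called at the depth of these libraries.

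Set beside the genome, 8 of the 10 genes had a peak by the 20 kb rule, where 50.4% of the 22380 protein-coding genes had one. A peak at or above the list median was present at 8 genes (background 34.0%). At least 1 at or above the upper quartile was present at 4 genes (background 20.1%), namely H2-K1, H2-D1, B2m and Tapbp. For H2-K1 this peak lay at the TSS of H2-K2, and for B2m it lay nearest to the TSS of Trim69. Within 1 kb of a TSS, 8 genes had a peak (background 24.9%), and for 4 genes, H2-K1, H2-D1, Tap2 and Tapbp, that peak reached the list median (background 13.5%). For Tapbp only the intron 3 peak did so, and its peaks of 8.31 and 7.20 at other TSSs of the gene did not. There were 3 or more peaks at 7 genes (background 14.0%). The 10 genes are not independent in these counts, since 4 of them share peaks.

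The genes around them gave a nearer comparison. Among the 175 other protein-coding genes between Tapbp and H2-M3, a stretch of 3354 kb on chromosome 17, 75.4% had a peak by the 20 kb rule, and 33.7% had 1 within 1 kb of a TSS. This region holds 7 of the 10 genes, and all 7 had a peak by either rule. The listed genes outside it are B2m, Erap1 and Nlrc5. When only the gene body counted, 6 of the 10 genes had a peak, against 24.6% of the other genes of the region and 23.1% of all protein-coding genes. At 5 kb and 10 kb the count was 8 of 10, against 52% and 65.7% in the region and 38.4% and 43.4% over all protein-coding genes. At 50 kb, Erap1 was added to the 8 genes with a peak, and the shares were 88.0% in the region and 62.5% over all protein-coding genes. The gap between the 10 listed genes and the other genes of the region was widest in the gene body and narrowed as the limit grew. It is not a gap within the region, because the 10 include B2m, Erap1 and Nlrc5. The region was delimited after its peaks had been seen, and the part of gene density in these shares was not tested.

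**Figure D2:**
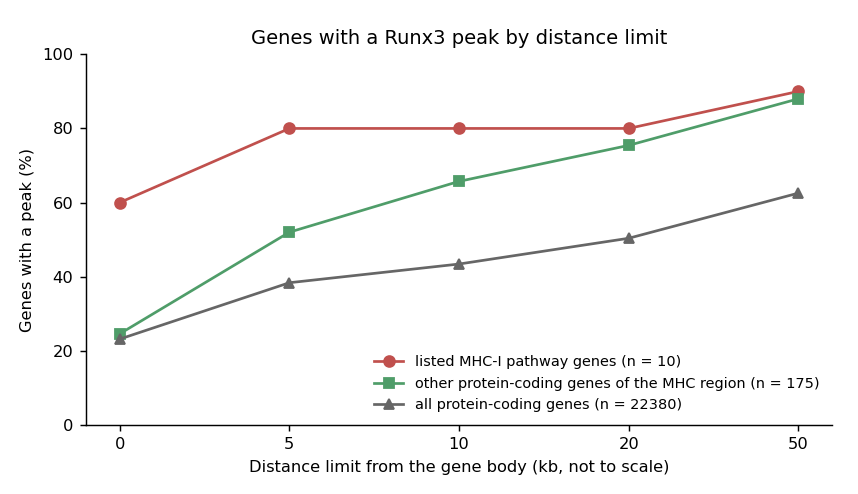
Share of genes with a Runx3 peak by distance limit. The x axis gives the limit from the gene body in kb (0 means the gene body, spacing not to scale) and the y axis the percentage of genes with a peak. The listed genes (8 of 10 at 20 kb) lie above the other genes of the MHC region (75.4%) and all protein-coding genes (50.4%) at every limit. The gap to the region narrows from the gene body to 50 kb. The listed genes include B2m, Erap1 and Nlrc5, which lie outside the region.

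The 21 peaks had a median score of 13.4, against 12.1 for all peaks. Of these, 11 were at or above the list median and 5 at or above the upper quartile. Their median width of 408 bp was close to the 406 bp of the list. More of them were near promoters, with 12 of 21 (57.1%) within 1 kb of a TSS of a protein-coding gene, compared with 36.3% of all peaks, 58.2% of the peaks at further pathway genes and 75% of those at constitutive 20S proteasome genes, so this share was not particular to the 10 genes. The promoter-near peaks had a median score of 7.76, below the 12.7 of all promoter-near peaks, and the 9 farther peaks had a median of 18.1, above the 12.0 of all farther peaks. The 2 classes overlapped, with scores of 3.68 to 38.1 near promoters and of 7.20 to 72.7 farther away. At the classical MHC-II chain genes the corresponding medians were 4.79 and 28.6, a wider gap. At the constitutive 20S proteasome genes they were 11.2 and 19.8. At the further pathway genes the order was reversed, with 16.9 near promoters and 11.7 farther away. The farther class includes the H2-K2 peak, which lies at the TSS of a pseudogene. The promoter-near class includes peaks nearest to the TSS of Daxx, Zbtb22, Rgl2 and Ddx39b, which are not listed genes.

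**Figure D3:**
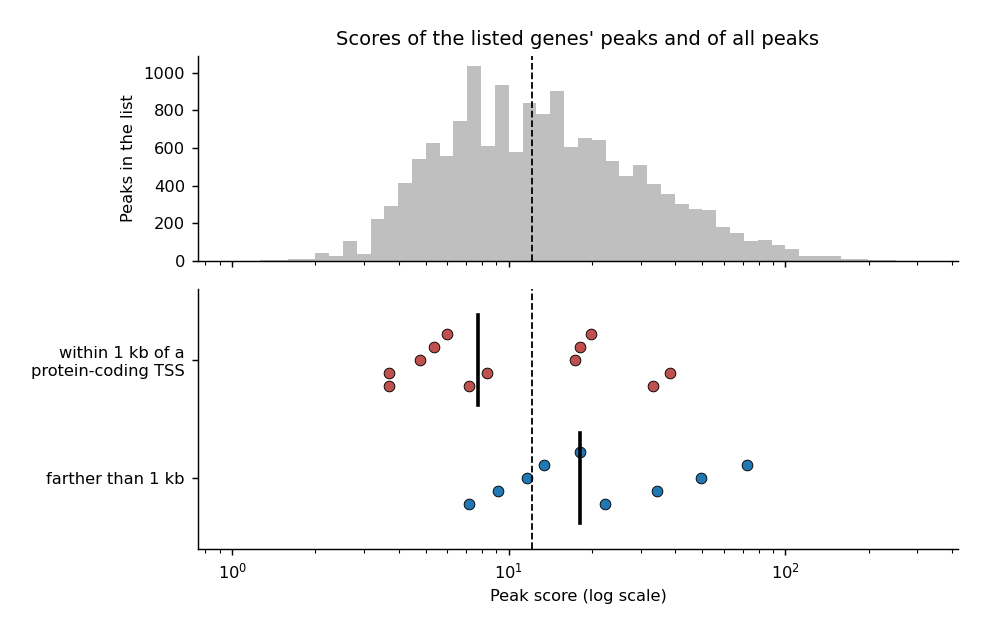
Scores of the 21 peaks and of the whole list. The x axis is the peak score on a log scale, the upper panel is a histogram of all 15121 peaks, the dashed line is their median (12.1), each point is 1 peak and solid bars are class medians. Peaks within 1 kb of a protein-coding TSS centre on 7.76, farther peaks on 18.1, and the classes overlap.

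Counted over the full width of each peak and on either strand, TGTGGT was present in 9 of the 21 peaks (42.9%, Wilson 95% interval 24.5 to 63.5%), compared with 54.0% of all peaks. Counting TGCGGT as well gave 13 peaks (61.9%) against 66.5%. By position, TGTGGT was found in 3 of the 12 promoter-near peaks (25%, against 33.6% of all such peaks) and in 6 of the 9 farther ones (66.7%, against 65.7%). The promoter peaks of H2-K1, H2-D1, B2m and Tap2 and the shared promoter peak of Tap1 and Psmb9 held neither hexamer. The median scores of peaks with and without TGTGGT were 13.4 and 13.2, whereas over the list they were 14.2 and 10.5. In the 300 bp at the peak centre, TGTGGT occurred in 8 of the 21 peaks (38.1%) and 47.9% of all peaks, and in promoters of the same length, from 250 bases before to 50 after a TSS, in 15.2%.

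Exact matches to elements known from MHC-I promoters were present in a few of the peaks. The NF-kB element was found in 3 of 21 (14.3%, interval 4.98 to 34.6%), compared with 2.26% of all peaks and 5.45% of the peaks at further pathway genes. The 3 were the related promoters of H2-K1, H2-D1 and H2-K2. The interval treats them as independent peaks, although their sequences are alike. In the 300 bp at the centre the NF-kB element was in 2 (9.52%), against 1.55% of all peaks and 1.29% of promoters. An ISRE was found in 4 (19.0%, interval 7.67 to 40.0%), compared with 6.48% of all peaks and 16.4% of the peaks at further pathway genes, at B2m, Tapbp, Psmb8 and Tap2. All 4 remained in the 300 bp window, against 4.50% of all peaks and 3.84% of promoters, and 2 (9.52%) in the central 200 bp, against 3.06%. No peak held exact matches to both strings, and sites that differ from a string were not counted. CCAAT, read by NF-Y, occurred in 8 peaks (38.1% against 41.7%), and the cyclic AMP response element TGACGT in 1 (4.76% against 11.0%). The ETS element GGAAGT occurred in 7 peaks (33.3% against 52.8%) and the ETS-IRF composite GGAANNGAAA in 1 (4.76% against 7.81%), at Psmb8, where it overlapped the ISRE and an ETS match. The AP-1 element TGANTCA was in 0 of 21 peaks (interval up to 15.5%), compared with 13.2% of all peaks. A match describes these letters only and is not evidence of binding by the factor. Likewise, the lack of an exact match is not evidence that a peak lacks the element.

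**Figure D4:**
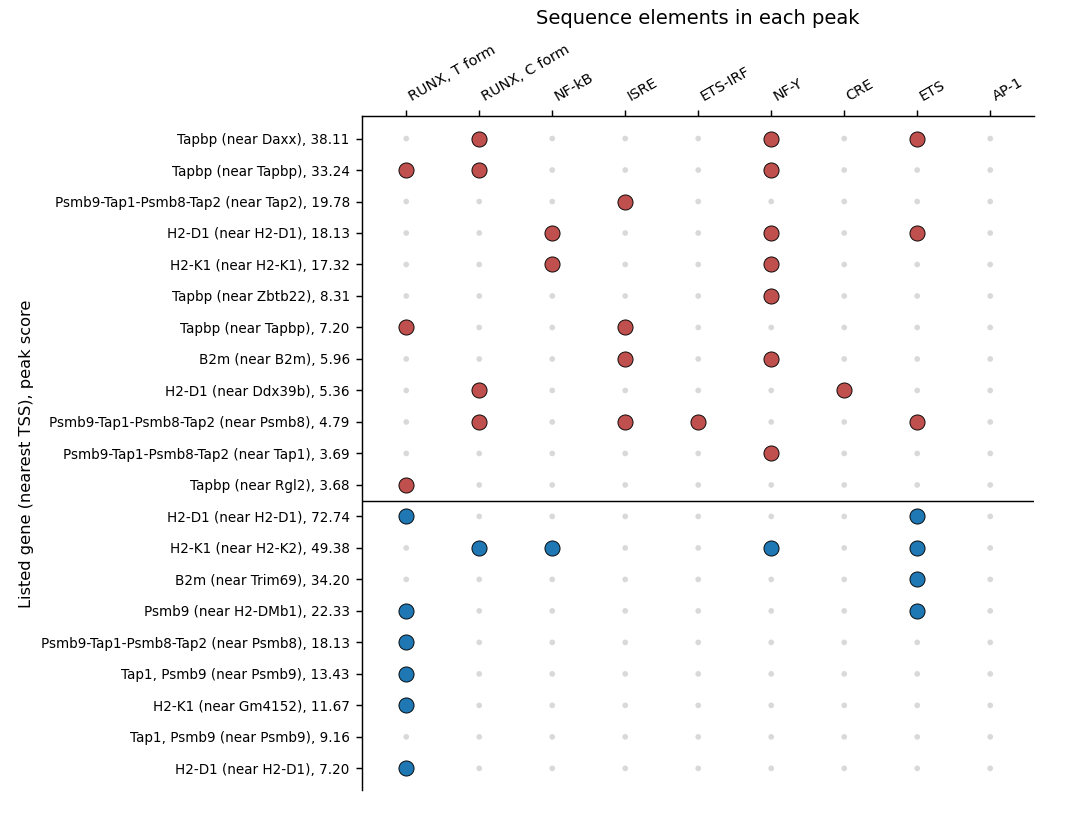
Sequence elements in each of the 21 peaks. Rows are peaks labelled with the listed gene, the nearest TSS and the score. Columns are elements, and a large point marks at least 1 exact match. Red rows above the line lie within 1 kb of a protein-coding TSS and blue rows lie farther away. The NF-kB element is at H2-K1, H2-D1 and H2-K2, the ISRE at Tapbp, Tap2, B2m and Psmb8, TGTGGT (the T form) fills 6 of the 9 blue rows, and AP-1 is empty.

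Of 36 further genes of the pathway, 35 were annotated, and 26 of these had a peak by the same rule (background 50.4%). At a TSS the count was 15 (background 24.9%). Peaks were present at 4 of 4 endoplasmic reticulum chaperone genes, 3 of 3 peptidase genes, 10 of 12 regulator genes and 2 of 3 proteasome genes. They were also present at 7 of 13 other heavy chain genes, a share near the background. At a TSS the counts were 4 of 4 chaperone, 2 of 3 peptidase, 6 of 12 regulator, 1 of 3 proteasome and 2 of 13 heavy chain genes. High scores were found at Creb1 (107), Rfx5 (104.5), Nfkb1 (95.6) and H2-T24 (59.1). Creb1, Rfx5 and Nfkb1 encode transcription factors that act on MHC promoters. The Rfx5 and Creb1 peaks were at their promoters, 200 and 440 bp upstream of a TSS, so these regulators had promoter peaks of higher score than any of the 10 listed genes. H2-T23 had none, but only 56.0% of the 50-base stretches around its 5′ end occur once in the genome.

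Among the other proteasome genes induced by interferon, Psmb10, the remaining catalytic subunit of the immunoproteasome, had no peak. Psme1 and Psme2 encode the activator PA28 and had 4 and 3 peaks, some of them in common, with highest scores of 23.3 and 29.5. Of the constitutive 20S core genes, 13 of 14 had a peak (background 50.4%), with a median of 1 peak per gene. The highest score of that list was 199 at Psma6, which had 3 peaks and is named after its values were seen. Of the subunits that the immunoproteasome replaces, Psmb5 had 1 peak of 4.09, Psmb7 had 1 of 1.74 at its TSS, and Psmb6 had none. The classical MHC-II chain genes, which lie in the same region, had more peaks, with 13 at H2-Aa, 6 at H2-Ab1, 9 at H2-Eb1 and 5 at H2-Eb2, from 16 distinct peaks with a median score of 13.1. In peaks per 100 kb of window, the density was 4.67 at the 10 listed genes, 13.7 at the MHC-II genes, 2.55 at the further MHC-I pathway genes, 2.47 at the 20S core genes and 0.928 at all protein-coding genes. The stretch from Tapbp to H2-M3, which holds most of the listed genes, had 120 peaks in 3354 kb. Its other protein-coding genes had a median of 2 peaks by the 20 kb rule, against 4 at the 10 listed genes.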

How the data were processed

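Runx3 ChIP-seq libraries of sorted splenic CD4+ DC were fixed with 1% formaldehyde, sheared to about 300 bp and sequenced as 50 bp reads. Per the submitters' processing notes, the authors used CASAVA 1.8, Bowtie and MACS2 with mm9; versions of Bowtie and MACS2 and the calling threshold are not given in the sources used here. The deposited file is 1 list of peaks called by the authors on both immunoprecipitates against both inputs, with a start, an end and a score as MACS2 wrote it. Reads per sample and per peak were not analysed here.

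Peaks were placed by their centre on NCBIM37, the assembly of mm9, with GENCODE M1. Motifs were exact matches on both strands. The 50-base uniqueness counted exact matches in the genome on both strands. Promoter peaks were aligned locally (match 2, mismatch -3). Shares carry Wilson 95% intervals, which cover counting error only. The scripts (Python 3.11.15, pysam 0.24.0, biopython 1.88) were tested on simulated data. Named were all 10 genes, the 5 further pathway genes with the highest scores (the result for 1 of them is not reported here), Psmb10, Psme1, Psme2 and H2-T23, the MHC-II chain genes, and Psmb5, Psmb6 and Psmb7; other genes are named where they are neighbours of a peak, and H2-Q7 for its alignment. The members and lists were chosen with earlier results of these data known. Alternatives changed the distance limit, the score threshold, the peak position, the gene models, the joining of peaks closer than 300 bp, and the motif. Another kept only peaks whose nearest protein-coding TSS was of a listed gene.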

Additional observations from a re-analysis of the deposited data

How the results depend on the processing

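The peak count of 21 fell to 8 with the gene body alone, 11 with scores at or above the list median and 5 at or above the upper quartile, and rose to 40 with a limit of 50 kb. At the upper quartile, 4 genes kept a peak and the median score was 38.11. Genes with a TSS peak numbered 4 at the list median and 1 at the upper quartile. These changes follow from fewer peaks or wider windows. The other 41 of the 49 values computed for the main results under alternatives stayed within 1.5 times for a count and within the 95% interval otherwise. At the edge of that range, the peak count was 14 with a limit of 5 kb. It was also 14 when only peaks whose nearest protein-coding TSS was of a listed gene were kept. All 8 genes kept a peak in both cases. For the median score the interval, taken from the ordered scores of the 21 peaks, was wide, 7.20 to 22.3. With scores at or above the list median, the median score was 22.3, the upper bound, and counted as unchanged. Shares with the RUNX hexamer from 28.6% (central 200 bp) to 61.9% (TGCGGT included) also counted as unchanged. Counts of peaks per gene moved by over 1.5 times, or to or from 0, in 36 of 100 cases. No paired analysis was possible because the list holds only pooled values, so no replicate could be left out either. Regions of low enrichment may have been missed at the depth of these libraries, and scores, whose unit is unknown, were compared only within the list.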
